A study of Mus musculus with 12 samples.

Results

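The natriuretic peptide system of the embryonic ventricle was followed through 8 genes: the peptides Nppa, Nppb and Nppc, the proteases Corin and Furin that mature them, and the receptors Npr1, Npr2 and Npr3. The genes were chosen by name, and each had 1 row among the 40800 genes of the count table. The series profiled ventricular RNA of mice at day 12.5 of gestation by bulk sequencing. Its 12 libraries comprise 6 of ventricles labelled as Wnt gain of function, that is, with raised activity of the Wnt signalling pathway, and 6 of control ventricles. The labels name neither the allele nor a Cre driver, give no side of the heart, and leave unsaid if embryos were pooled. The p-values therefore measure the spread between libraries, which may be partly technical. The comparison asks which ventricular genes differ with Wnt activation, in a study whose title concerns arrhythmia.

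Natriuretic peptides are hormones that the heart itself secretes. Nppa encodes atrial natriuretic peptide (ANP) and Nppb encodes B-type natriuretic peptide (BNP), and both genes are active in the chamber myocardium of the embryo, Nppa above all in atria and in the trabeculae of the ventricle. Each peptide is cut from a longer precursor, ANP by the membrane protease corin and BNP mainly by furin. ANP and BNP act through Npr1, a receptor that makes cyclic GMP, C-type natriuretic peptide (CNP, from Nppc) acts through the related receptor Npr2, and Npr3 binds all of them and removes them without making cyclic GMP.

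The 3 peptides share a ring of 17 residues closed by a disulfide bond between its first and last cysteine. The bases that encode it in Nppb and Nppc are given here in the sense orientation, from the GENCODE M21 transcripts of build GRCm38, with the 2 cysteine codons in capitals, because they show how closely these ligands are related. The stretches lie in exon 2 of 3 in each gene, at chr4:147986464-147986514 on the plus strand for Nppb and at chr1:86669667-86669717 on the minus strand for Nppc.
Nppb: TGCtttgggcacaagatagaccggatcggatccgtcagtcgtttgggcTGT
Nppc: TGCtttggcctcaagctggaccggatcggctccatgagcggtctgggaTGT
Of the 51 bases, 40 were the same in Nppb and Nppc, and at the protein level 13 of 17 residues were the same. This was the closest pair. The ring of Nppa shared 34 bases with Nppb and 32 with Nppc, and 12 residues with either. After the ring, 6 codons follow in Nppb and 0 in Nppc.

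Nppa and Nppb lie head to tail on chromosome 4, with starts 14934 bases apart in GENCODE M21 (GRCm38), and their promoters are shown because these neighbours had similar values across the libraries below. The bases come from RefSeq's promoter table (GRCm38.p6) and stop before the first annotated transcript start, which leaves 250 bases at chr4:148000472-148000721 for Nppa and 138 bases at chr4:147985650-147985787 for Nppb, both on the plus strand. Capitals mark matches, on either strand, to the TCF/LEF core CTTTGA, through which beta-catenin's partners bind DNA, the T-box motif GGTGTG, the NKX2-5 core AAGTG, the GATA core GATAA and the CArG box of serum response factor.
Nppa: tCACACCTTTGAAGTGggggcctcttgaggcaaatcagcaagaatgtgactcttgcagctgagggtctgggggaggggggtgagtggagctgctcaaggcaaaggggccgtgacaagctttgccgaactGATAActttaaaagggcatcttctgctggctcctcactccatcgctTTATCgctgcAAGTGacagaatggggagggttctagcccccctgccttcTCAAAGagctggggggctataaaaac
Nppb: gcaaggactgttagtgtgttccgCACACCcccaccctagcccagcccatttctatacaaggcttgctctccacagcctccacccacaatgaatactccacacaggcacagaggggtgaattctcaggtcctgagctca
The Nppa window held 2 matches to the TCF/LEF core, 2 to the GATA core, 2 to the NKX2-5 core and 1 to the T-box motif. At its far end the T-box, TCF/LEF and NKX2-5 matches overlap by 1 base each, between 249 and 235 bases before the start. Over 32851 promoter windows of 250 bases, 13.8% held a TCF/LEF core, 16.3% a T-box motif, 22.6% a GATA core, 40.7% an NKX2-5 core and 1.47% a CArG box. The shorter Nppb window held 1 T-box motif, a match found in 9.21% of windows of that length, where 8.59% held a TCF/LEF core, 14.6% a GATA core, 25.3% an NKX2-5 core and 0.721% a CArG box. These matches are letters in a sequence and were not tied to binding.

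The deposited read counts summed to between 12127026 and 17184662 per Wnt gain-of-function library and to between 10130088 and 17526325 per control library. As a check of the labels, Axin2 (a feedback inhibitor and standard readout of canonical Wnt signalling) was at 14.9 to 26.0 CPM (counts scaled to a common library size) in 5 Wnt gain-of-function libraries, against 1.39 to 4.13 CPM in the 6 control libraries. The library labelled Wnt gain of function 5 had 3.78 CPM of Axin2, inside the control range, and it was the lowest of its group in all 6 Wnt readouts listed. It lay inside the control range in Nkd1 and Lef1 too, at 4.15 and 30.4 CPM. In the other readouts it lay above every control library, though on few reads. It had 1.18 CPM of Notum (16 reads, against 2 to 14 reads in control libraries), 1.11 CPM of Rnf43 (15 reads, against 6 to 11) and 0.518 CPM of Sp5 (7 reads, against 0 to 4). Of the 5 readouts tested, Axin2, Notum and Rnf43 were called higher in edgeR, Axin2 by 2.62 on the log2 scale (adjusted p = 0.0145), Notum by 4.84 (0.00950) and Rnf43 by 2.14 (0.00950). Because the readouts of the library labelled Wnt gain of function 5 are mixed, the results are given with and without it. Leaving it out also lowered the log2 fold changes of most listed red blood cell (erythroid) genes, given with the cell type markers below. The libraries were also divided into 3 sets that cut across the groups, by clustering their deviations from the group means. The number of 3 was imposed on the clustering, so it is not a finding about the libraries. The first set held Wnt gain of function 1 and 2 with control 2 and 3, the second Wnt gain of function 3 and 4 with control 4 and 5, and the third Wnt gain of function 5 and 6 with control 1 and 6. The heart muscle genes Myl2, Myl3 and Tnnt2 averaged 2999, 3172 and 3685 CPM in the Wnt gain-of-function group (n = 6). In control libraries they averaged 3151, 3286 and 3912 CPM (n = 6).

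Per kilobase of exon, Nppa was the most abundant of the 8 genes and Nppc the least in both groups. Nppa had 1353 ± 216 CPM per kilobase of exon (RPKM, with lengths from GENCODE M21) in Wnt gain-of-function and 943 ± 148 RPKM in control libraries (SD, n = 6 each, as in the rest of this paragraph). Nppb followed at 447 ± 109 RPKM in Wnt gain-of-function and 317 ± 50.4 RPKM in control libraries. The ranges of these neighbours in the order did not overlap in either group. Corin had 12.2 ± 4.45 RPKM in Wnt gain-of-function and 18.3 ± 6.56 RPKM in control libraries, and Npr3 had 11.2 ± 3.32 RPKM in Wnt gain-of-function and 8.21 ± 1.97 RPKM in control libraries. Furin came next, at 6.51 ± 1.87 RPKM in Wnt gain-of-function and 5.95 ± 0.875 RPKM in control libraries. The levels of Corin and Npr3, and of Npr3 and Furin, overlapped in both groups. The cyclic GMP receptors were low. Npr2 had 2.34 ± 0.292 RPKM in Wnt gain-of-function and 2.46 ± 0.780 RPKM in control libraries, and Npr1 had 1.69 ± 0.204 RPKM in Wnt gain-of-function and 1.73 ± 0.376 RPKM in control libraries, with overlapping ranges. Nppc came last, at 0.436 ± 0.398 RPKM in Wnt gain-of-function and 0.727 ± 0.427 RPKM in control libraries, and overlapped with Npr1 in the control group only. Of the receptors, the clearance receptor Npr3 had the highest level per length, above every value of Npr1 and Npr2 in both groups.

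**Figure D1:**
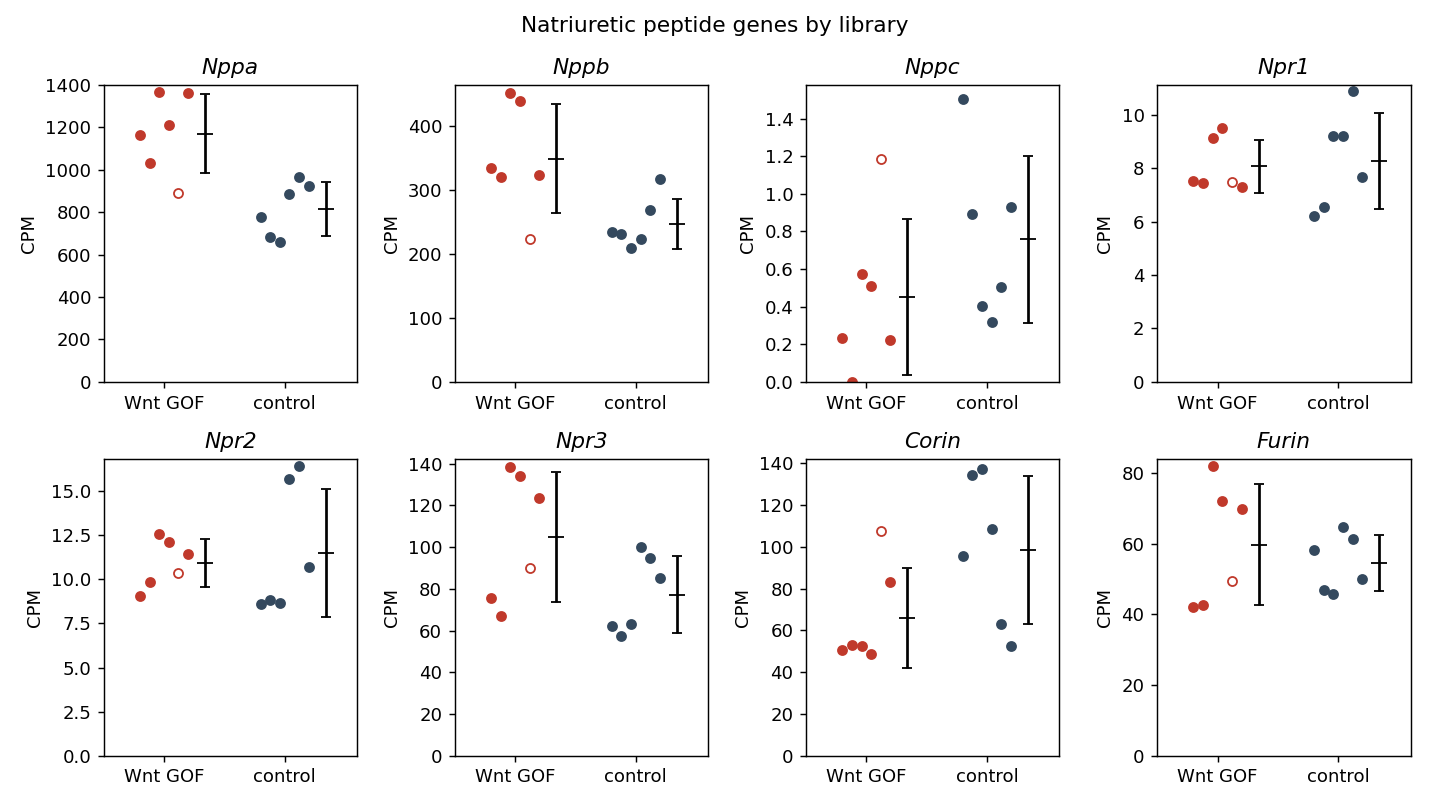
CPM (y axis, from 0) of the 8 genes in each library, with Wnt gain of function (GOF, red) left of control (dark blue). The bar is the mean ± SD of 6 libraries, and the open circle is the library labelled Wnt gain of function 5. Nppa and Nppb lie higher in 5 Wnt gain-of-function libraries than in any control library, whereas the Wnt gain-of-function values of Npr1 and Npr2 lie within their control ranges.

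Between the groups, 0 of the 7 members tested passed edgeR's quasi-likelihood test in either direction (Benjamini-Hochberg adjusted p under 0.05 over 14774 genes), where 0.433% of all tested genes were called higher and 0.0677% lower. Nppc was too low for the test. At an unadjusted p under 0.05 there were 3 members, Nppa, Nppb and Npr3, against 6.30% of all tested genes. DESeq2 called 1 member, Nppa, where it called 0.914% of genes higher and 0.169% lower. With limma-voom 0 members were called, where only 3 of 14774 genes were called higher and 3 lower. Without the library labelled Wnt gain of function 5, edgeR called 2 members higher, Nppa and Nppb, where 1.00% of genes were called higher and 0.188% lower. That library was singled out after its values were seen and was the lowest of its group in both genes. Leaving it out therefore raises both fold changes, and these adjusted p-values can be too small. No other single library left out gave a call of a member. A blocking term for the 3 library sets also gave 2 members called higher in edgeR, Nppa and Npr3, where 1.32% of genes were called higher and 0.677% lower. The sets were found in these same libraries, so p-values with this term can be too small.

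Nppa, the ANP gene (ENSMUSG00000041616, chr4:148000722-148002079, plus strand of GRCm38), ranged from 889 through a median of 1188 to 1365 CPM in Wnt gain-of-function libraries and from 660 through 832 to 964 CPM in control libraries. The groups met only at the library labelled Wnt gain of function 5. The other 5 Wnt gain-of-function libraries, at 1030 CPM or more, lay above every control library. Among them 1 with 2 and 3 with 4 were close pairs over all genes, so they may not be 5 independent samples. The means were 1170 ± 187 CPM in Wnt gain-of-function and 815 ± 128 CPM in control libraries (SD, n = 6 each). The log2 fold change was 0.52 ± 0.120 (SE), a fold of 1.44 with a 95% interval of 1.20 to 1.71 and an edgeR adjusted p of 0.0842, and Nppa stood 94th of all tested genes by p. Without the library labelled Wnt gain of function 5 the log2 fold change was 0.59 ± 0.113 and the adjusted p 0.0132, and the groups did not overlap, as in 1.96% of all genes then tested. Nppa also passed in DESeq2 (adjusted p = 0.00856), with no low-count filter (0.0429) and with the set term (0.0123), and it did not in the other 18 alternatives, which gave adjusted p-values of up to 0.641. In bulk tissue, more cells that express a gene and more RNA per cell cannot be told apart.

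Nppb, the BNP gene (ENSMUSG00000029019, chr4:147985788-147987205, plus strand), ranged from 224 through a median of 329 to 453 CPM in Wnt gain-of-function libraries and from 210 through 233 to 317 CPM in control libraries. Again 5 of 6 Wnt gain-of-function libraries lay above every control library, but narrowly, since the lowest of them had 320.5 CPM. The highest values were those of Wnt gain of function 3 and 4, at 453 and 440.2 CPM, which were the closest pair of libraries over all genes. The log2 fold change was 0.50 ± 0.152, a fold of 1.41 with a 95% interval of 1.13 to 1.76 (edgeR adjusted p = 0.310). Without the library labelled Wnt gain of function 5 it was 0.60 ± 0.125 (adjusted p = 0.0260). That was the only 1 of the 22 alternatives in which Nppb passed. With the closest library pairs summed, its log2 fold change was 0.39.

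The library labelled Wnt gain of function 5 lay inside the control range of Nppa and Nppb, as it did for Axin2, Nkd1 and Lef1 but not for Notum, Rnf43 and Sp5. At 889 CPM of Nppa and 224 CPM of Nppb it lay next to control 4, which had 884 CPM of Nppa, 224 CPM of Nppb and 3.65 CPM of Axin2. Among the other libraries the order of the peptides did not follow the order of Axin2 throughout. Wnt gain of function 4 had the highest Axin2, at 26.0 CPM, with 1211 CPM of Nppa, whereas Wnt gain of function 6 had 18.9 CPM of Axin2 with 1361 CPM of Nppa. In the control group, control 5 had the highest Axin2 and the highest Nppa, at 4.13 and 964 CPM, but control 6 had the highest Nppb, at 317 CPM, against 269.6 CPM in control 5.

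**Figure D2:**
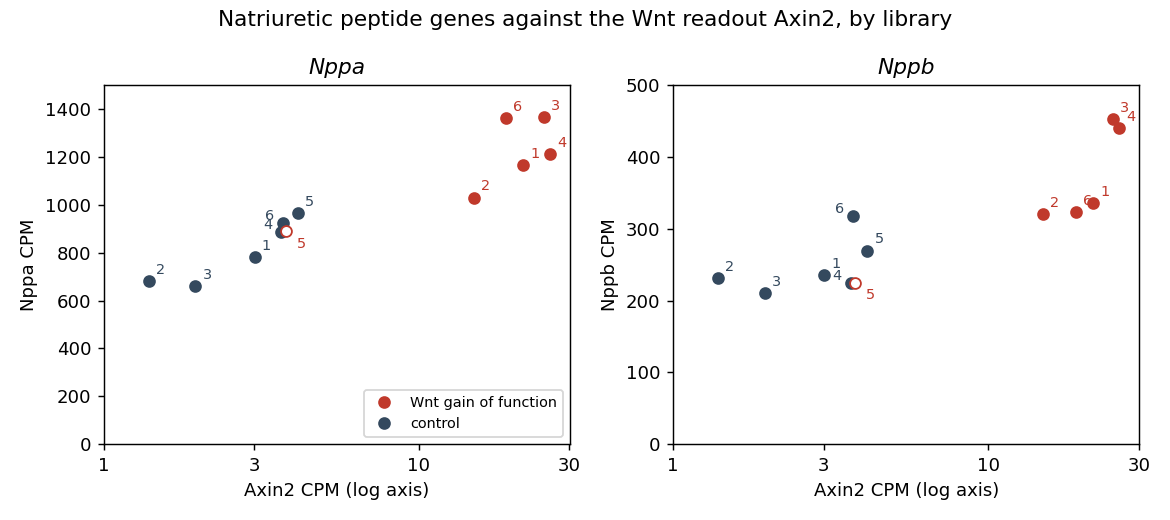
Nppa (left) and Nppb (right) in CPM against the Wnt readout Axin2 in CPM on a log axis, 1 point per library with its replicate number, Wnt gain of function in red and control in dark blue. The open circle, the library labelled Wnt gain of function 5, has 3.78 CPM of Axin2 and sits among the control libraries in both panels.

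The proportion of the 2 peptide genes had overlapping ranges in the 2 groups, and it did not keep 1 direction within the library sets. For each read of Nppb there were 3.44 ± 0.561 reads of Nppa in Wnt gain-of-function libraries and 3.31 ± 0.401 in control libraries (SD, n = 6 each). The proportion ran from 2.75 to 4.21 in Wnt gain-of-function libraries and from 2.91 to 3.95 in control libraries. In the first set it was 3.47 and 3.21 in Wnt gain-of-function and 2.95 and 3.14 in control libraries. In the second set it was 3.01 and 2.75 in Wnt gain-of-function and 3.95 and 3.58 in control libraries, and in the third 3.96 and 4.21 in Wnt gain-of-function and 3.32 and 2.91 in control libraries. Wnt gain of function was the higher in the first set and in the third, and the lower in the second, without overlap of the groups. With only 2 libraries of either group in a set, such a separation arises easily, and its share over other genes was not computed. These differences were not tested. By the root mean square difference between centred log2 CPM values over the 12 libraries, Nppb was 0.189 from Nppa, and 40 other genes were closer to Nppa than that, among 14495 genes whose log2 CPM averaged 0 or more. Npr3 was 0.251 from Nppa, with 313 genes closer, and Corin 0.836, with 14271 closer. The 3 genes most like Nppa were Lrp8, a receptor of the low-density lipoprotein receptor family (0.122), Rnf149, a ubiquitin ligase (0.132), and Nos1ap, an adaptor of neuronal nitric oxide synthase known for its link to the QT interval in humans (0.137). The 3 most like Nppb were Gnai1, an inhibitory G protein subunit (0.154), Npas3, a transcription factor (0.171), and Chst11, a chondroitin sulfotransferase (0.171).

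Nppc, the CNP gene (ENSMUSG00000026241, chr1:86666291-86670571, minus strand), was close to the detection limit. It had 0 to 16 reads per Wnt gain-of-function library, 37 in all, and 4 to 17 reads per control library, 57 in all. The 0 reads of Wnt gain of function 2 allow a level of up to 0.176 CPM (3 reads, counting error only). The groups overlapped, with 0.454 ± 0.415 CPM in Wnt gain-of-function and 0.758 ± 0.445 CPM in control libraries (SD, n = 6 each). With no low-count filter, edgeR gave a log2 fold change of -0.74 with a 95% interval of -1.91 to 0.43 (adjusted p = 0.812), so no difference was detectable at this depth.

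Among the receptors, Npr3 had higher mean values in Wnt gain-of-function libraries, while Npr1 and Npr2 were centred near no change. Npr3, the clearance receptor (ENSMUSG00000022206, chr15:11839896-11907287, minus strand), ranged from 66.9 through a median of 107 to 138 CPM in Wnt gain-of-function libraries and from 57.4 through 74.3 to 99.9 CPM in control libraries. Wnt gain of function 3, 4 and 6 lay above all controls, and the other 3 lay within the control range. The log2 fold change was 0.44 ± 0.205, a fold of 1.36 with a 95% interval of 1.00 to 1.85 (edgeR adjusted p = 0.789). Within the 3 library sets, each with 2 libraries of either group, Npr3 averaged 71.2, 136 and 107 CPM under Wnt gain of function and 60.3, 97.3 and 73.8 CPM in control libraries. Npr3 was higher in Wnt gain of function in 3 of 3 sets, and with the set term its log2 fold change was 0.42 ± 0.0900 (adjusted p = 0.0257). The adjusted p was 0.375 or more in the other 21 alternatives.

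Npr1, the receptor for ANP and BNP (ENSMUSG00000027931, chr3:90450591-90465866, minus strand), ranged from 7.31 through a median of 7.50 to 9.49 CPM in Wnt gain-of-function libraries and from 6.19 through 8.43 to 10.9 CPM in control libraries, with 66 to 160 reads per library behind these values. Its log2 fold change was -0.039 with a 95% interval of -0.35 to 0.27 (edgeR adjusted p = 0.999). Npr2, the receptor for CNP (ENSMUSG00000028469, chr4:43631935-43651244, plus strand), ranged from 9.09 through 10.9 to 12.6 CPM in Wnt gain-of-function libraries and from 8.58 through 9.76 to 16.4 CPM in control libraries. The upper end of its control range came from control 4 and control 5, at 15.7 and 16.4 CPM, while the other 4 controls had 10.7 CPM or less. Its log2 fold change was -0.072 with a 95% interval of -0.45 to 0.30 (adjusted p = 0.999), and the sign of both receptors' changes turned when control 5 was left out, to 0.054 for Npr1 and 0.058 for Npr2. No test of a difference between the receptors' responses was made.

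Of the processing enzymes, Corin had lower mean values in Wnt gain-of-function libraries and the widest spread of the tested members. Corin (ENSMUSG00000005220, chr5:72300025-72504473, minus strand), which activates ANP at the cell surface, ranged from 48.7 through a median of 52.9 to 107 CPM in Wnt gain-of-function libraries and from 52.5 through 102 to 137.5 CPM in control libraries. Wnt gain of function 1 to 4 lay close together, between 48.7 and 53.2 CPM, beside control 6 at 52.5 CPM. Over all genes 1 with 2 and 3 with 4 were close pairs, so these 4 values may not be independent. The library labelled Wnt gain of function 5 had 107 CPM. The SD was 36.5% of the mean in Wnt gain-of-function and 35.9% in control libraries. The log2 fold change was -0.58 ± 0.278, with a 95% interval of -1.19 to 0.022 (edgeR adjusted p = 0.822). Without the library labelled Wnt gain of function 5 it was -0.78, with an interval of -1.32 to -0.23 (adjusted p = 0.302). It was -0.32 after summing the closest pairs of libraries. Corin did not pass in any of the 22 alternatives. It did not keep 1 direction within the library sets. It averaged 51.9, 50.6 and 95.3 CPM in the Wnt gain-of-function libraries of the 3 sets, against 136, 86.0 and 74.0 CPM in their control libraries, so the third set ran the other way.

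Furin, a convertase of many precursors besides pro-BNP (ENSMUSG00000030530, chr7:80388585-80405436, minus strand), ranged from 42.0 through a median of 59.7 to 82.1 CPM in Wnt gain-of-function libraries and from 45.8 through 54.2 to 64.8 CPM in control libraries. Wnt gain of function 3, 4 and 6 lay above the controls and Wnt gain of function 1 and 2 below them. The log2 fold change was 0.13 with a 95% interval of -0.23 to 0.49 (edgeR adjusted p = 0.999). Wnt gain of function 3, 4 and 6 were also the libraries highest in Npr3, and the profiles of Npr3 and Furin lay 0.237 apart by the measure above, with 157 genes closer to Npr3.

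**Figure D3:**
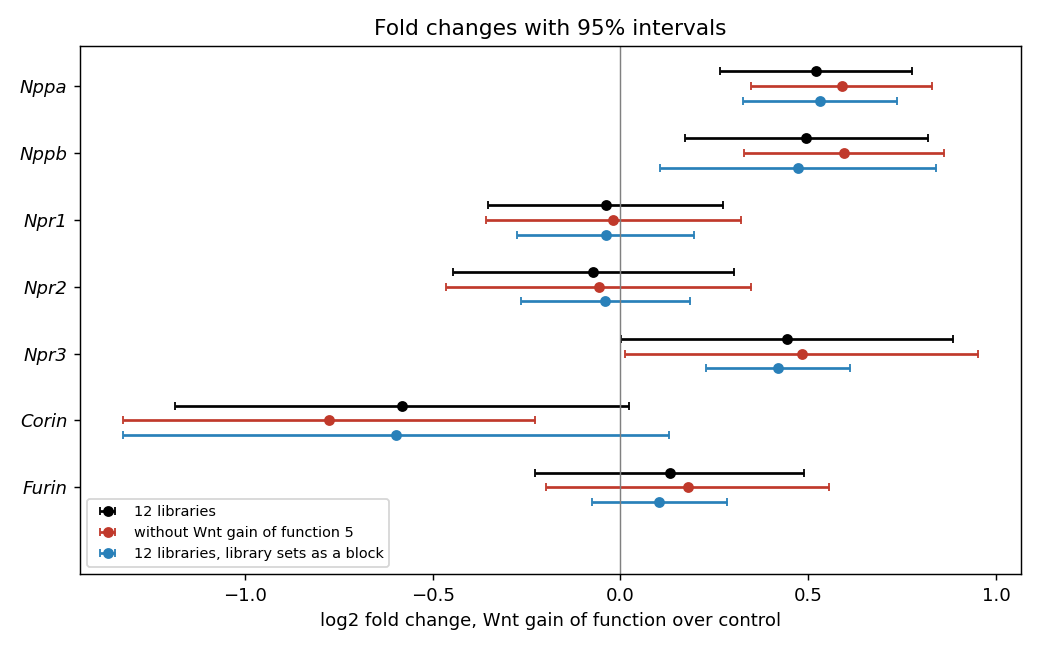
Log2 fold change (x axis, Wnt gain of function over control) of the 7 members tested, with 95% intervals, in edgeR with all 12 libraries (black), without the library labelled Wnt gain of function 5 (red) and with a blocking term for the library sets (blue). The intervals of Nppa, Nppb and Npr3 lie above 0 in all 3 fits, that of Npr3 barely so in the first 2 (lower ends 0.001 and 0.013). Those of Npr1, Npr2 and Furin include 0 in all 3, and that of Corin leaves 0 only in the fit without the library labelled Wnt gain of function 5.

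**Figure D4:**
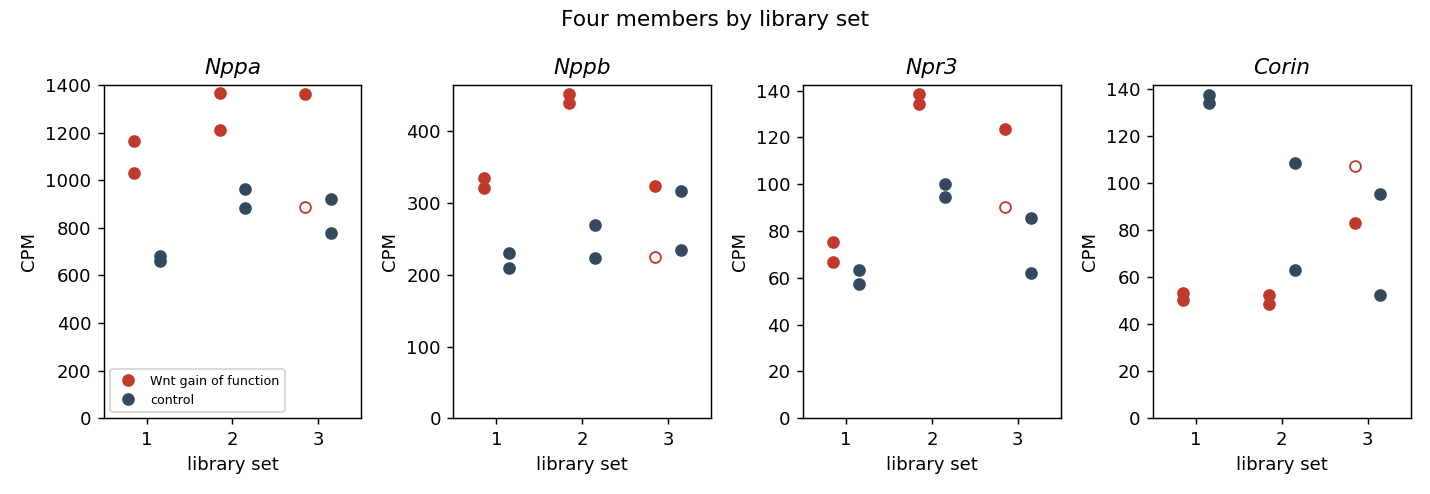
CPM (y axis, from 0) of Nppa, Nppb, Npr3 and Corin in the 3 library sets, with the 2 Wnt gain-of-function libraries of a set (red) left of its 2 control libraries (dark blue) and the library labelled Wnt gain of function 5 as an open circle. Nppa and Npr3 have the higher mean in Wnt gain of function in each set, Nppb only in the first 2 sets, and Corin is lower in the first 2 sets and higher in the third.

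Within the library sets Nppa averaged 1097, 1288 and 1125 CPM under Wnt gain of function and 671, 924 and 851 CPM in control libraries, log2 ratios of 0.71, 0.48 and 0.40. Nppb averaged 328, 447 and 274 CPM under Wnt gain of function and 221, 247 and 276 CPM in control libraries, log2 ratios of 0.57, 0.86 and -0.013. The third set holds the library labelled Wnt gain of function 5.

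The other genes of the pathway showed no call. Of 19 further genes of peptide breakdown, cyclic GMP production and cyclic GMP signalling, 18 were tested, and 0 passed in edgeR or DESeq2 in either direction. Their median log2 fold change was -0.10, against 0.0013 over all tested genes. Of the 18, 2 had an unadjusted p under 0.05, against 6.30% of all tested genes. Prkg2, a cyclic GMP-dependent kinase, averaged 3.24 CPM in Wnt gain-of-function and 1.96 CPM in control libraries (log2 fold change 0.73 ± 0.278, edgeR adjusted p = 0.542). Pde3a, a phosphodiesterase that cyclic GMP inhibits, averaged 50.9 CPM in Wnt gain-of-function and 59.4 CPM in control libraries (-0.22 ± 0.0964, 0.699). Mme, which encodes the natriuretic peptide-degrading enzyme neprilysin and was named after its value was seen, had a log2 fold change of 0.16. Ostn, which encodes osteocrin, a ligand of Npr3, averaged 0.0310 CPM in Wnt gain-of-function libraries, had no read in control libraries and was not tested.

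Of 19 transcription factors known to act on Nppa or Nppb, 1 passed in edgeR and was lower. Hey2, a repressor made in compact myocardium, fell to 72.4 CPM in Wnt gain-of-function libraries, against 97.4 CPM in control libraries (log2 fold change -0.43 ± 0.0716, adjusted p = 0.0145), and the groups did not overlap, as in 0.460% of all tested genes. The list's median was -0.045, and 4 of 19 had an unadjusted p under 0.05, against 6.30% of all tested genes. Tbx3, a repressor of chamber genes, was at 0.41 (edgeR adjusted p = 0.760, and 0.0400 with the set term). Gata6 had an unadjusted p under 0.05 too, at -0.16 (edgeR adjusted p = 0.748). Myocd and Mef2a were at -0.10 and -0.045. The factors known as activators of Nppa had fold changes of either sign, with Tbx5 at 0.25 (adjusted p = 0.510), Gata4 at -0.089, Nkx2-5 at -0.021, Mef2c at 0.14 and Srf at 0.14 on the log2 scale, these 5 named after their values were seen.

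No gene listed as a neighbour of Nppa and Nppb on chromosome 4 was called with group as the only term. Of 15 listed, 12 lie within 200 kb of the pair and 12 were tested, but these are not the same 12. Tnfrsf1b and Vps13d lie farther away and were tested, Fbxo2 and Draxin lie within 200 kb and were not, and Tnfrsf8 is neither near nor tested. In edgeR and DESeq2 0 passed, 4 of 12 had an unadjusted p under 0.05, against 6.30% of all tested genes, and these 4 had either sign. The median log2 fold change was 0.019. Miip was at -0.32 (edgeR adjusted p = 0.417), Fbxo44 at -0.38 (0.689), Fbxo6 at 0.33 (0.699) and Clcn6, the chloride transporter gene that follows Nppa, was at 0.29 (0.603). Fbxo44 was called lower in edgeR with the set term (-0.40, adjusted p = 0.0475). Gm13054, an antisense transcript annotated over Nppa, had 25 to 54 reads in Wnt gain-of-function and 18 to 46 reads in control libraries. Nppa itself had 6871 reads or more, and whether counting used strand is not given in the sources used here, so reads of the 2 strands cannot be told apart.

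Genes that often accompany natriuretic peptides in cardiac stress and in fetal muscle had no call with all libraries and group as the only term. Of 12, 0 passed in edgeR or DESeq2, 2 had an unadjusted p under 0.05, and the median log2 fold change was -0.064. Csrp3, a muscle LIM protein, was at 0.42 (edgeR adjusted p = 0.340, but 0.00150 without the library labelled Wnt gain of function 5). Rcan1, an inhibitor of calcineurin, was at -0.32 (0.453, and 0.00447 with the set term). Myh7 and Acta1, named after their values were seen, were at -0.17 and 0.27.

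Markers of the compartments in which Nppa is strong were compared beside it. Of 9 trabecular genes, 0 passed in edgeR with all libraries and group as the only term, and 1 passed in DESeq2, Slit2. Its log2 fold change was 0.39 (DESeq2 adjusted p = 0.00412, edgeR 0.0569). In edgeR Slit2 was called higher with the set term (adjusted p = 0.00269) and without the library labelled Wnt gain of function 5 (0.0296). Of the 9 genes, 3 had an unadjusted p under 0.05, against 6.30% of all tested genes, and the list median was -0.022. Their summed level was 2093 to 2666 CPM in Wnt gain-of-function and 2026 to 2626 CPM in control libraries. Kcne1, a potassium channel subunit of this list, was at -0.55 (edgeR adjusted p = 0.604), and it was called lower with the set term (0.000103). Of 4 compact-layer genes, Hey2 was lower in edgeR and Fstl4 was at 0.67 (edgeR adjusted p = 0.133, DESeq2 0.0207, and edgeR 0.0258 without the library labelled Wnt gain of function 5). The 8 atrial genes summed to 3734 to 4916 CPM in Wnt gain-of-function and 2816 to 5443 CPM in control libraries, with 0 calls in edgeR or DESeq2 and a list median of -0.16. Of them Kcna5 had an unadjusted p under 0.05, at -0.50 (edgeR adjusted p = 0.393), and Myl4, the atrial light chain, was at 0.22 (0.809). Dkk3, a secreted protein of this list, was at -0.48 (0.849), and without the library labelled Wnt gain of function 5 it was called lower (0.0482). The range of the summed atrial genes in Wnt gain-of-function libraries lay within that of the control libraries, and 0 of the 8 genes were at 0 in all libraries. Most of this sum was Myl7 and Myl4. In Wnt gain-of-function and control libraries Myl7 averaged 1913 and 2034 CPM and Myl4 2217 and 1902 CPM. Sln averaged 9.79 and 12.2 CPM (log2 fold change -0.32). The sum therefore says little about the low genes of the list, and atrial content was not tested.

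Markers of other cell types were set beside Npr3 and the peptides in the same way. The 11 endocardial and endothelial genes summed to 888 to 1021 CPM in Wnt gain-of-function and 848 to 986 CPM in control libraries, with 0 calls in edgeR or DESeq2, 0 unadjusted p-values under 0.05 and a list median of 0.047, with Tek at 0.16 and Emcn at 0.18. The 10 genes of epicardium and mesenchyme summed to 1566 to 2003 CPM in Wnt gain-of-function and 1654 to 2348 CPM in control libraries, with 0 calls by either tool, 0 unadjusted p-values under 0.05 and a median of -0.11, with Col1a1 at -0.52 and Col3a1 at -0.14. The 6 heart muscle genes listed as ventricular summed to 18140 to 24060 CPM in Wnt gain-of-function and 18040 to 24130 CPM in control libraries. They had 0 calls by either tool, 0 unadjusted p-values under 0.05 and a median of -0.078, with Irx4 at -0.15 and Tnni3 at -0.12. Their sum does not separate ventricular from other heart muscle. The 10 macrophage genes summed to 62.0 to 114 CPM in Wnt gain-of-function and 59.4 to 81.7 CPM in control libraries. Of these macrophage genes 9 lay above 0, as did 50.4% of all tested genes. An unadjusted p under 0.05 was found for 5 of them, against 6.30% of all tested genes. In edgeR and DESeq2 0 passed, and the median was 0.39, with Aif1 at 0.58 and Tyrobp at 0.59. The 8 erythroid genes varied most, from 10220 to 89160 CPM in Wnt gain-of-function and from 7262 to 71860 CPM in control libraries, with 0 calls by either tool, 0 unadjusted p-values under 0.05 and a median of 0.007, with Hba-a2 at -0.25. Leaving out the library labelled Wnt gain of function 5 moved the log2 fold change of Hba-x from 0.053 to -0.78. Hbb-bh1 moved from 0.17 to -0.91 and Hbb-y from -0.099 to -0.70, while Hba-a2 rose from -0.25 to -0.15. Whether blood content bears on that library's Nppa and Nppb was not tested. The part of macrophage content in the members' values was not tested. With haemoglobin genes left out the log2 fold change of Nppa was 0.52 and that of Nppb 0.49.

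**Figure D5:**
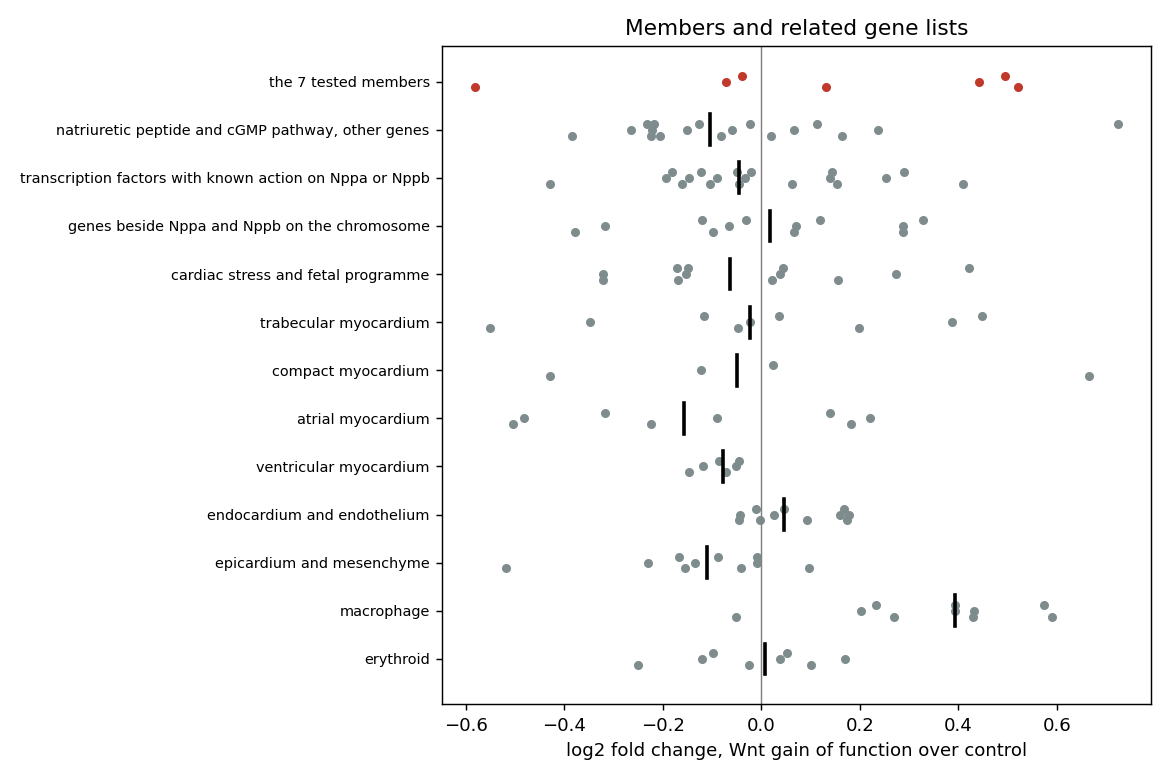
Log2 fold change in edgeR (x axis, Wnt gain of function over control) of the 7 tested members (red) and of the tested genes of each related list (grey), 1 point per gene, offset vertically for legibility, with the list median as a black bar. The list medians lie between -0.16 and 0.047 except that of the macrophage genes, at 0.39.

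In the authors' deposited table, which lists log2 fold changes and p-values for each gene, 0 of the 8 members had an adjusted p under 0.05. The share of all its genes under that threshold was not computed here, so this count cannot be weighed against it. Nppa was at 0.52 (adjusted p = 0.104 in the authors' deposited table), Nppb at 0.47 (0.407), Npr3 at 0.42 (0.814) and Corin at -0.57 (0.723). The same table gives Nppc at -1.24 (adjusted p = 0.882), a larger change than the -0.74 of edgeR with no filter, both from the same few reads.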

How the data were processed

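The authors deposited read counts, whole numbers in every cell, with 1 column per library and 1 row per Ensembl ID, per the file headers. The submitters' processing notes name Subread, featureCounts and edgeR. Which build, annotation and strand setting the counting used is not given in the sources used here. Of the 41422 rows of the count table, 622 repeat a gene ID with identical counts and were left out. A second table deposited by the authors lists their log2 fold changes and p-values, per the file headers.

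The main test used edgeR 4.0.16 (R 4.3.3). The filter filterByExpr with a minimum count of 10 left 14774 genes. Counts were scaled by TMM and compared with the robust quasi-likelihood test, group as the only term, with Benjamini-Hochberg adjustment and a threshold of 0.05. Intervals of 95% come from the F statistic. CPM uses TMM-scaled library sizes, and RPKM divides it by the summed exon length of GENCODE M21. Likeness was computed on log2(CPM + 0.5). DESeq2 1.42.0, limma-voom (limma 3.58.1), other scalings and filters, blocks and each library left out were alternatives.

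The members, the gene lists and the alternatives were chosen with earlier results of these data known. From each list, called genes and otherwise the 2 with the lowest p are named. Some items that fall under these rules are not reported here. Same-numbered libraries of the 2 groups deviated together with correlations from -0.405 to 0.493, so the numbers were not taken as pairs. Library pairs of 1 group were set against counting noise by chi-square, gene by gene, where a pair had 20 reads or more. Of them 3 pairs stood apart, Wnt gain of function 3 and 4, Wnt gain of function 1 and 2 and control 2 and 3, with means of 3.07, 3.10 and 3.32, against 12.8 to 93.1 in the others. By this measure the third library set was loose. Wnt gain of function 5 and 6 had 59.4, whereas Wnt gain of function 2 and 6, of different sets, had 25.7. All pairs differed by more than sampling noise, which does not show that their libraries are independent. Each library was counted as 1 sample, so the main p-values can be too small if the close pairs share a source. The labels do not say whether the close pairs share an animal, and summing them was an alternative. Sequences were taken from RefSeq's promoter table and GENCODE M21, in which all 8 members were found, and protein sequences were not used here.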

Additional observations from a re-analysis of the deposited data

How the results depend on the processing

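The 7 members tested kept their direction in the 22 alternatives except Npr1 and Npr2, and 0 members were called lower in any of them. The number of members called higher was 0 in 18 of the 22, 1 with DESeq2, 1 with no low-count filter and 2 with a blocking term for the library sets, and 0 to 2 with single libraries left out. Nppa passed with a log2 fold change of 0.52 in DESeq2, 0.52 with no filter and 0.53 with the set term, and its values with a library left out were 0.47 to 0.59. Those of Nppb were 0.41 to 0.60, and Npr3 passed with the set term at 0.42. Left-out libraries gave -0.11 to 0.054 for Npr1, which turned to 0.054 without control 5, and -0.15 to 0.058 for Npr2, which turned to 0.041 without control 4 and 0.058 without control 5. Over all genes, 64 were called higher and 10 lower. These counts were 135 and 25 with DESeq2, 3 and 3 with limma-voom and 195 and 100 with the set term. With no filter, where 27743 genes were tested, 97 were called higher. With the 3 closest library pairs summed, which leaves 4 Wnt gain-of-function and 5 control samples, 0 were called higher and 1 lower, with 600 genes at an unadjusted p under 0.05 in edgeR, and Nppa was at 0.455 (adjusted p = 0.641). With a library left out, the counts were 34 to 149 and 4 to 28. The replicate number as a block gave Nppa 0.52 (edgeR adjusted p = 0.147) and Nppb 0.47 (0.599) and changed no call of a member. The cause of these differences was not tested. Depth limits Nppc, with 0 to 17 reads per library, and to a lesser degree Npr1 and Npr2.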
